A study of Mus musculus with 4 samples.

Results

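The genes of epidermal ceramide and barrier lipid metabolism were examined in bleomycin (BLM)-treated mouse skin with and without gasdermin D (GSDMD). The group was chosen by name from what the encoded proteins do, as enzymes or transporters of acylceramides, with earlier results of these data known. All 9 named genes were found among the 24441 genes of the expression table. Skin RNA of GSDMD-/- (KO) and wild type (WT) mice had been sequenced in 2 libraries per genotype, and the labels do not say whether each is 1 mouse or a pool. All were female C57BL/6 mice labelled as 8 weeks old, all had received subcutaneous BLM every other day for 28 days, and no saline-treated library was analysed here. The KO line had been made by injecting Cas9 mRNA and a guide RNA into C57BL/6 fertilized eggs. The RNA came from whole skin, so fewer cells of a type and less RNA per cell cannot be told apart in these values.

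The outermost layers of the epidermis hold water in the body by means of lipid sheets between the dead cells, and acylceramides are the lipids particular to these sheets. Keratinocytes build them from very long chain fatty acids (VLCFA), which are lengthened, hydroxylated at their far end, joined to a sphingoid base and esterified with linoleate. The product is glucosylated, loaded into lamellar bodies and secreted, and lipoxygenases then oxidise the linoleate so that the ceramide can be bound to the protein envelope of the cell. Loss of single genes of this pathway is known to cause ichthyosis in people and a lethal barrier defect in newborn mice.

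Expression was given as FPKM, fragments scaled to transcript length and library size, in which levels of different genes can be compared within a library. From the steps in which low values rise, the libraries were estimated to hold about 17400000 and 14300000 fragments in WT replicates 1 and 2 and 13800000 and 12800000 in KO replicates 1 and 2. The level of Gsdmd was 14.0 and 18.2 FPKM (WT) and 3.53 and 2.26 FPKM (KO), lower in both KO libraries as their labels say. KO replicate 2 stood apart from the other 3 libraries in its tissue markers. Fibroblast markers summed to 36.7 FPKM there against 234 to 526 FPKM in the others, adipocyte markers to 325 against 3764 to 10012 FPKM, and sebaceous gland markers to 1526 against 126 to 538 FPKM. Keratinocyte markers were present in every library. Skeletal muscle markers were too, with sums of 21848 and 20499 FPKM (WT) against 13336 and 13172 FPKM (KO), and 5 of these 7 were lower in both KO libraries, beside 20.5% of all genes tested. The part of muscle in the values of the barrier lipid genes was not tested. Values without single libraries are therefore given beside the fold changes of the 9 genes and beside those of many pathway genes.

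The 9 genes did not move as 1 block between the libraries. In KO replicate 1, 9 of 9 genes lay above both WT libraries, at 1.18 to 4.21 times the value of WT replicate 1, beside 46.5% of all genes tested, and the highest library in 6 of them, beside 18.9%. In KO replicate 2 the set divided, and 5 of 9 lay above both WT libraries, beside 49.3%. Elovl4, Cyp4f39 and Aloxe3 were higher still, Pnpla1 and Abca12 stayed above both WT libraries but below KO replicate 1, and Elovl1, Cers3, Ugcg and Alox12b were below WT replicate 1. The pattern of these 4, highest in KO replicate 1 and not above both WT libraries in KO replicate 2, was met in 11.2% of all genes tested. WT replicate 2 held the lowest value of 8 of the 9 genes, beside 42.0% of all genes, and WT replicate 1 stood above it in 9 of 9, beside 60.8%, at 1.26 to 4.0 times its value.

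**Figure D1:**
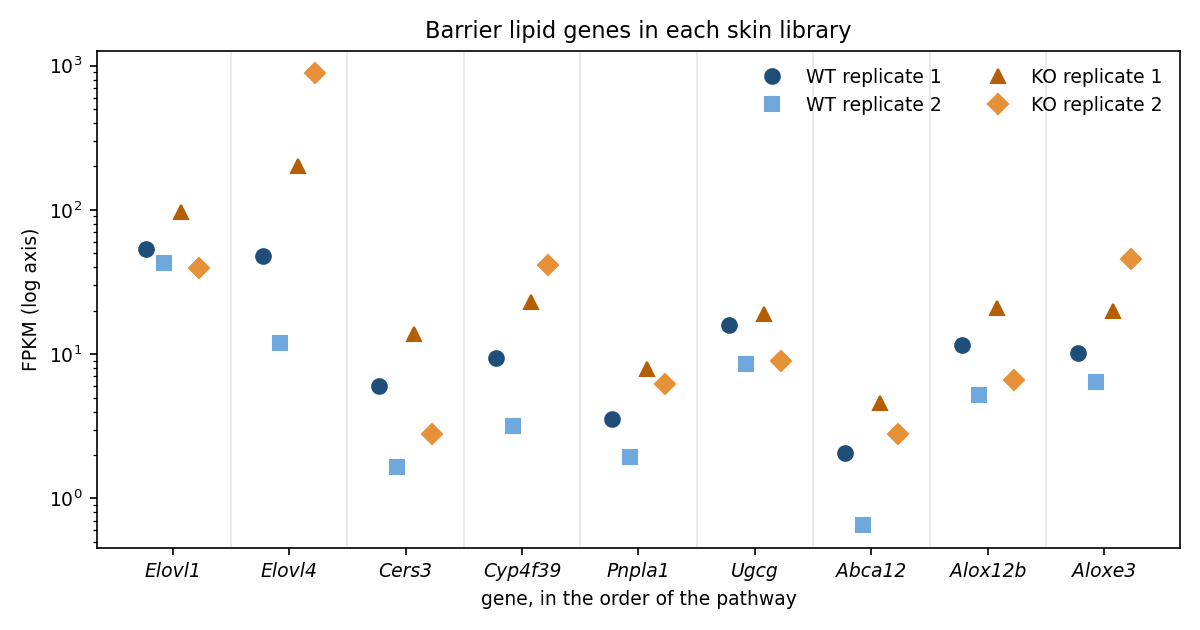
FPKM on a log axis of the 9 genes in each of the 4 libraries, genes in the order of the pathway, 1 point per library and gene. KO replicate 1 lies above both WT libraries for every gene, while KO replicate 2 is the highest library for Elovl4, Cyp4f39 and Aloxe3 and lies below WT replicate 1 for Elovl1, Cers3, Ugcg and Alox12b.

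Fatty acid elongation is the first step, and its enzymes gave both the widest and a narrow range. Elovl4 (chromosome 9, 83672300 to 83699912, minus strand, 6 exons; all positions are of build mm9 as annotated in GENCODE M1) encodes the elongase that makes the ultra-long acyl chains of acylceramides. Its level was 47.7 and 11.9 FPKM (WT) against 201 and 883 FPKM (KO), here and below with replicate 1 before replicate 2. The groups did not overlap, and the highest library held 74.2 times the value of the lowest. Elovl1 (chromosome 4, 118100698 to 118105558, plus strand, 9 exons) encodes the elongase of shorter saturated and monounsaturated VLCFA. It had 53.9 and 42.9 FPKM (WT) against 96.8 and 39.4 FPKM (KO), so that KO replicate 1 was the highest and KO replicate 2 the lowest of the 4. An exon of Elovl1 overlaps Cdc20 on the opposite strand, and whether strand was used in counting is not given in the sources used here. Elovl1 was the most abundant of the 9 transcripts in both WT libraries, and Elovl4 in both KO libraries.

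The genes that assemble the acylceramide differed from each other as well. Cers3 (chromosome 7, 73888390 to 73968578, plus strand, 11 exons, listed there as Lass3) encodes the ceramide synthase that joins ultra-long acyl chains to the sphingoid base. Its values were 5.98 and 1.64 FPKM (WT) against 13.9 and 2.79 FPKM (KO), and KO replicate 2 lay between the WT libraries. Cyp4f39 (chromosome 17, 32605404 to 32630265, plus strand, 12 exons), the fatty acid omega-hydroxylase, had 9.40 and 3.18 FPKM (WT) against 23.1 and 41.7 FPKM (KO). Both KO libraries lay above both WT libraries, with the higher value in KO replicate 2. Pnpla1 (chromosome 17, 28995356 to 29027253, plus strand, 10 exons) encodes the transacylase that esterifies the omega-hydroxyl group with linoleate. It had 3.58 and 1.95 FPKM (WT) against 7.88 and 6.18 FPKM (KO), and the KO values were close to each other. An exon of Pnpla1 overlaps Gm16190 on the opposite strand.

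Ugcg and Abca12 serve glucosylation and export. Ugcg (chromosome 4, 59202129 to 59235705, plus strand, 9 exons), the glucosylceramide synthase of all cells, varied least, with 16.0 and 8.61 FPKM (WT) against 19.0 and 8.94 FPKM (KO). The highest and the lowest library differed by 2.21 times, and the groups overlapped. Abca12 (chromosome 1, 71289664 to 71461484, minus strand, 53 exons) encodes the transporter that fills lamellar bodies with lipid. It had the lowest mean of the 9 genes, 2.06 and 0.652 FPKM (WT) against 4.61 and 2.81 FPKM (KO). The smallest of these values stands for about 77.7 fragments on this long transcript. Over the 4 libraries Abca12 and Pnpla1 had the most similar profiles of any pair of the 9 genes, with a root mean square distance of 0.13 between their centred log2(FPKM + 1) values.

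The lipoxygenases Alox12b and Aloxe3 act one after the other on the linoleate of acylceramides, and their genes are neighbours on the plus strand of chromosome 11, with 7873 bases between them. Alox12b (68970491 to 68983294, 15 exons) had 11.5 and 5.19 FPKM (WT) against 20.8 and 6.57 FPKM (KO). Aloxe3 (68939398 to 68962617, 15 exons) had 10.2 and 6.38 FPKM (WT) against 19.8 and 45.9 FPKM (KO). The pair was near equal in 3 libraries and not in the fourth. The FPKM ratio of Aloxe3 to Alox12b was 0.894 and 1.23 in WT replicates 1 and 2, 0.954 in KO replicate 1 and 7.0 in KO replicate 2. No stretch of 75 bases in the transcripts of any of the 9 genes occurs in a transcript of another annotated protein-coding gene.

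Ratios within a library do not depend on how the libraries were scaled. These pairs were chosen after the values had been seen and carry no test. The ratio of Elovl4 to Elovl1 was 0.885 and 0.278 in WT replicates 1 and 2, 2.08 in KO replicate 1 and 22.4 in KO replicate 2. That of Cyp4f39 to Pnpla1, which act on the same acyl chain, was 2.62 and 1.63 in WT and 2.93 and 6.75 in KO libraries. In contrast, Alox12b to Cers3 ranged only from 1.5 to 3.17 over the 4 libraries, with KO replicate 2 at 2.35, inside that range.

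**Figure D2:**
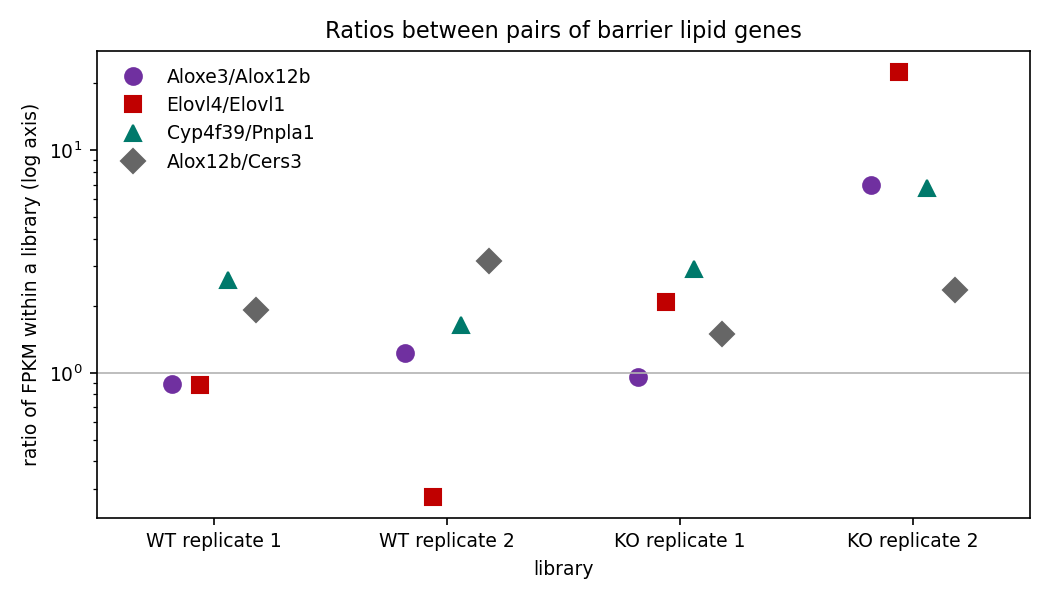
Ratio of FPKM between pairs of genes within each library, on a log axis, 1 point per library and pair. The ratios Aloxe3/Alox12b, Elovl4/Elovl1 and Cyp4f39/Pnpla1 are highest in KO replicate 2, at 7.0, 22.4 and 6.75, while Alox12b/Cers3 stays between 1.5 and 3.17.

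The 250 bases upstream of the RefSeq start are shown for Elovl4 and Cyp4f39, which were higher in both KO libraries, and for Alox12b and Cers3, which were higher in KO replicate 1 alone. The sequences are those of RefSeq (GRCm38.p6), where 8 of the 9 genes had an entry, and each was placed on mm9 by its exact match. RefSeq and GENCODE M1 do not give every gene the same start. The window of Cyp4f39 lies well upstream of the GENCODE gene, 83 bases of the Alox12b window lie inside the GENCODE gene, and so do all 250 bases for Ugcg and for the second start of Elovl1. They lie at chr9:83699913-83700162 (minus strand), chr17:32589418-32589667 (plus), chr11:68970324-68970573 (plus) and chr7:73888140-73888389 (plus). They read 5′ to 3′ along the gene, with capitals for the GC box GGGCGG and the KLF-type core GGGTGTGG on either strand.
Elovl4: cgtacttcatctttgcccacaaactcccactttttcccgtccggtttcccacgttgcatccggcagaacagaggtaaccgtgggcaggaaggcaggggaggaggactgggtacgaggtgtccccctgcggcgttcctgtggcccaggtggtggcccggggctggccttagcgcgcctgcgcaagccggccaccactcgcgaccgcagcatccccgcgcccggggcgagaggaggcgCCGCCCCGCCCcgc
Cyp4f39: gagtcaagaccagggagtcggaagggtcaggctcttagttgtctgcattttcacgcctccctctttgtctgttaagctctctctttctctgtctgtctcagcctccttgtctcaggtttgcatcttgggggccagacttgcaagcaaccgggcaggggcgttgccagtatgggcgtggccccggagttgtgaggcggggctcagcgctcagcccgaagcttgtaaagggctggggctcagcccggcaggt
Alox12b: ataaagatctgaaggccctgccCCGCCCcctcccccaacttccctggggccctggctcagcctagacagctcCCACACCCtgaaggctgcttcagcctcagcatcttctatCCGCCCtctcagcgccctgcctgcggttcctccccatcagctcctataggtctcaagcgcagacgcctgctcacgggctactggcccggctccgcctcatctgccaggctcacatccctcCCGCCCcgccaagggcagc
Cers3: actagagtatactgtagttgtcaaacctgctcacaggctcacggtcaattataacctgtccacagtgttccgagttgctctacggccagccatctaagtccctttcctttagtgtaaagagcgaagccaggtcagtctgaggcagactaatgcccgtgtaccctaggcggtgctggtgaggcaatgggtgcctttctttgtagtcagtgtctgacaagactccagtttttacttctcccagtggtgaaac
A GC box was found in the windows of 4 of the 8 genes, Elovl4 and Alox12b among them but not Cyp4f39 or Cers3, against 32.7% of 32851 windows of the same length. The KLF-type core was found in the windows of Alox12b and of the second start of Elovl1, against 3.20% of windows. The AP-1 site TGANTCA (6.75% of windows), the E-box CACGTG (6.02%), the sterol element TCACNCCAC (1.05%) and a DR1 element of nuclear receptors (0.0335%) were searched on both strands as well, and each was found in the windows of 0 of the 8. The 2 GC boxes of Elovl4 overlap each other. The matches describe letters only.

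For the comparison of GSDMD KO with WT mice, each gene was tested with limma on log2(FPKM + 1) together with all 13027 genes that reached 1 FPKM in at least 2 libraries. All 9 genes passed this filter. With the call set at adjusted p below 0.05 and a log2 fold change beyond 1 in either direction, 0 of the 9 were called, as were 0.0% of all tested genes. At an unadjusted p under 0.05 with the same limit on the fold change, 5 of the 9 were higher in KO mice, beside 6.16% of all tested genes, and 0 were lower, beside 4.14%. The log2 fold change was above 0 in 9 of 9, beside 58.6%. The same 5 genes, Elovl4, Cyp4f39, Aloxe3, Pnpla1 and Abca12, had groups that did not overlap, which held, higher in KO, for 35.3% of all tested genes. For 2 against 2 libraries, 0.333 is the smallest p that exact permutation (two-sided) allows for any of these genes.

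The log2 fold change was 4.08 for Elovl4 (standard error 0.92, adjusted p = 0.248 by limma), 2.28 for Cyp4f39 (standard error 0.54) and 1.78 for Aloxe3 (standard error 0.47). Pnpla1 and Abca12 had log2 fold changes of 1.12 (standard error 0.32) and 1.04 (standard error 0.40, adjusted p = 0.290 by limma). The other 4 genes had values smaller than or about as large as their errors: 0.81 for Cers3 (standard error 0.79), 0.55 for Alox12b (0.62), 0.36 for Elovl1 (0.47) and 0.14 for Ugcg (0.47). The median over the 9 genes was 1.04, beside 0.11 over all tested genes. Leaving out KO replicate 1 gave a median of 0.76, and leaving out KO replicate 2 gave 1.31.

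Leaving out 1 KO library acted on the genes in opposite ways. Without KO replicate 2, the log2 fold changes of Elovl4, Cyp4f39 and Aloxe3 were 3.01, 1.87 and 1.20, and those of Cers3, Alox12b, Elovl1 and Ugcg were 1.80, 1.31, 1.00 and 0.64. Without KO replicate 1, Elovl4, Cyp4f39 and Aloxe3 stood at 5.14, 2.70 and 2.37 and passed the threshold, with adjusted p of 0.00348, 0.0142 and 0.00674 by limma. The same setting gave -0.18 for Cers3, -0.21 for Alox12b, -0.28 for Elovl1 and -0.36 for Ugcg. In that fit the lone KO library is assumed to vary as the WT libraries do, and 15.2% of all tested genes were called. Without KO replicate 2, 0 of the 9 were called, beside 0.244% of all tested genes. For Pnpla1 and Abca12 these settings gave 0.96 to 1.27 and 0.76 to 1.32. WT replicate 2, the lowest library of most of the genes, mattered as well. Without it the log2 fold change was 0.60 for Abca12, 0.11 for Cers3, 0.04 for Alox12b, 0.20 for Elovl1 and -0.27 for Ugcg, and without WT replicate 1 it was 1.51 for Cers3, 1.05 for Alox12b and 0.55 for Ugcg.

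**Figure D3:**
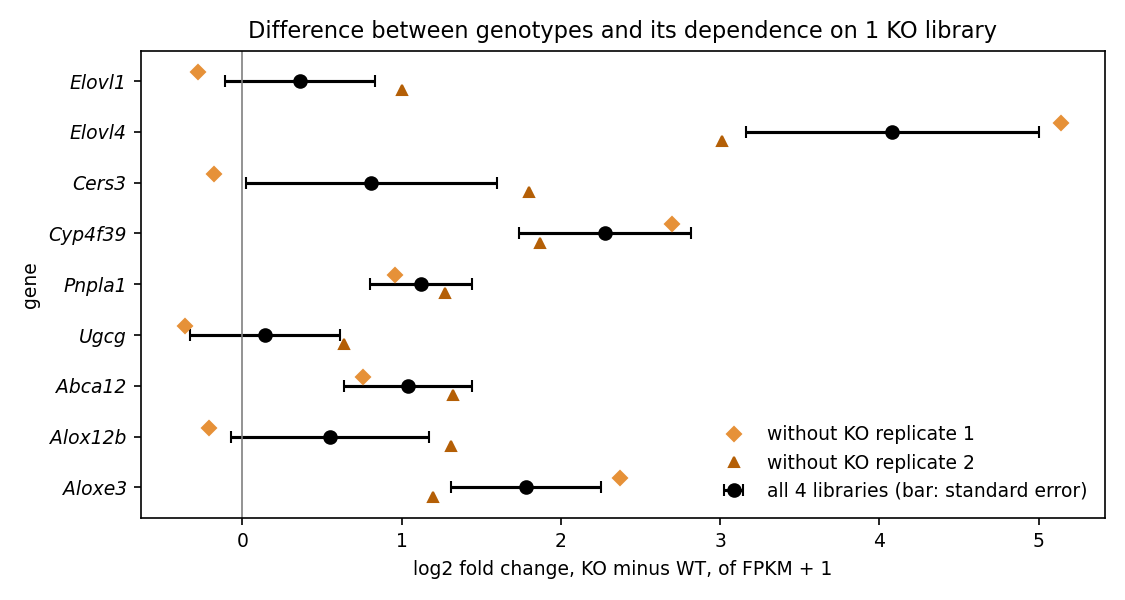
Log2 fold change of FPKM + 1, KO minus WT, for the 9 genes (circles, with the standard error from limma), and the same value without KO replicate 1 (diamonds) or without KO replicate 2 (triangles). Diamonds lie below 0 for Elovl1, Cers3, Ugcg and Alox12b and far above the triangles for Elovl4, Cyp4f39 and Aloxe3.

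Most of these genes belong to the upper epidermis, and the share of epidermis in a biopsy can differ. Each gene was therefore also set against keratinocyte markers of the same library. The 8 suprabasal markers, Krt1, Krt10 and others, averaged 8.19 and 7.13 on the log2(FPKM + 1) scale in WT and 9.22 and 7.70 in KO libraries. The 8 basal markers averaged 6.09 and 5.97 in WT and 7.0 and 7.37 in KO libraries, higher in both. Among them, the keratin Krt5 had 764 and 765 FPKM (WT) against 1728 and 1664 FPKM (KO), and its partner Krt14 had 1293 and 1214 FPKM (WT) against 2689 and 2735 FPKM (KO).

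The planned comparison named only the suprabasal and basal lists, and a granular layer list was added to it. On the log2(FPKM + 1) scale, Alox12b kept a near constant distance to the mean of the 11 granular layer markers. Relative to that mean it stood at -2.52 and -2.35 log2 units in WT and at -2.56 and -2.32 in KO libraries. Against Lor alone, a marker of that list, it did not, with FPKM ratios of 0.0079 and 0.00642 in WT, 0.00732 in KO replicate 1 and 0.0424 in KO replicate 2. Cers3 stood between -3.59 and -3.11 in all 4 libraries. Aloxe3 lay in a like narrow range in 3 libraries, at -2.66, -2.10 and -2.62, and was at 0.31 in KO replicate 2. For Elovl4 the values were -0.55 and -1.29 in WT, 0.65 in KO replicate 1 and 4.55 in KO replicate 2. Against the suprabasal list the KO minus WT difference was 3.27 for Elovl4, 1.48 for Cyp4f39, 0.98 for Aloxe3, 0.32 for Pnpla1 and 0.24 for Abca12, and it lay below 0 for Elovl1, Ugcg and Alox12b. KO replicate 2 set the sign or most of the size of these positive values. Leaving it out gave 1.45 for Elovl4, 0.30 for Cyp4f39, -0.37 for Aloxe3, -0.29 for Pnpla1 and -0.24 for Abca12. Against the basal list it was positive only for Elovl4 (2.93), Cyp4f39 (1.13) and Aloxe3 (0.63), and these were 2.05, 0.90 and 0.23 without KO replicate 2. Without that library the basal difference was also above 0 for Cers3 (0.83), Abca12 (0.36), Alox12b (0.35), Pnpla1 (0.31) and Elovl1 (0.03). It stayed below 0 for Ugcg (-0.32). Aloxe3 in KO replicate 1, at -2.62, lay between the WT values of -2.60 and -3.09. The median of all tested genes was -0.69 against the suprabasal and -1.04 against the basal list. The exact permutation p of these differences was at best 0.333, the smallest possible.

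Sebaceous gland markers, like Elovl4, Cyp4f39 and Aloxe3, were highest in KO replicate 2. The 7 markers summed to 180 and 126 FPKM (WT) against 538 and 1526 FPKM (KO), 7 of 7 were highest in KO replicate 2, beside 41.6% of all tested genes, and none was at 0. Krt79, a keratin of the sebaceous duct and upper follicle, had 156 and 101 FPKM (WT) against 427 and 919 FPKM (KO). Set against Krt79, a gene chosen after its values were seen, the 3 genes differed. Aloxe3 had FPKM ratios of 0.0657 and 0.0631 in WT and 0.0465 and 0.05 in KO libraries, lower in both KO libraries. For Cyp4f39 the ratios were 0.0603 and 0.0314 in WT and 0.054 and 0.0454 in KO libraries, which overlapped. For Elovl4 they were 0.306 and 0.118 in WT, 0.471 in KO replicate 1 and 0.962 in KO replicate 2, so that its level was higher relative to Krt79 in both KO libraries. The part of sebaceous tissue in the values of the 3 genes was not tested.

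The other markers followed different courses. Those of the granular layer summed to 2798 and 1619 FPKM (WT) against 5314 and 962 FPKM (KO), and 11 of 11 were highest in KO replicate 1, beside 18.9% of all tested genes. Lor, which encodes a main protein of the cornified envelope, was at 2844 FPKM in KO replicate 1 and 155 FPKM in KO replicate 2. Averaged on the log2(FPKM + 1) scale, the 11 markers stood at 6.15 and 4.99 in WT and 7.0 and 5.24 in KO libraries, lowest in WT replicate 2. Inner root sheath markers of the growing hair follicle summed to 8.24 and 0.669 FPKM in WT, 315 FPKM in KO replicate 1 and 6.25 FPKM in KO replicate 2, where 1 of 7 was at 0, as were 4 of 7 in WT replicate 2. The hair shaft list had its highest sum, 79.3 FPKM, in KO replicate 1. Wound keratinocyte markers gave 1443 and 546 FPKM (WT) against 2401 and 905 FPKM (KO). Their mean on the log2(FPKM + 1) scale was 7.75 and 6.16 in WT and 8.2 and 5.73 in KO libraries, lowest in KO replicate 2. Macrophage markers summed to 1427 and 1240 FPKM (WT) against 492 and 64.0 FPKM (KO), and endothelial markers to 8.03 FPKM in KO replicate 2 against 66.7 to 98.0 FPKM elsewhere. Their part in the values of the barrier lipid genes was not tested.

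**Figure D4:**
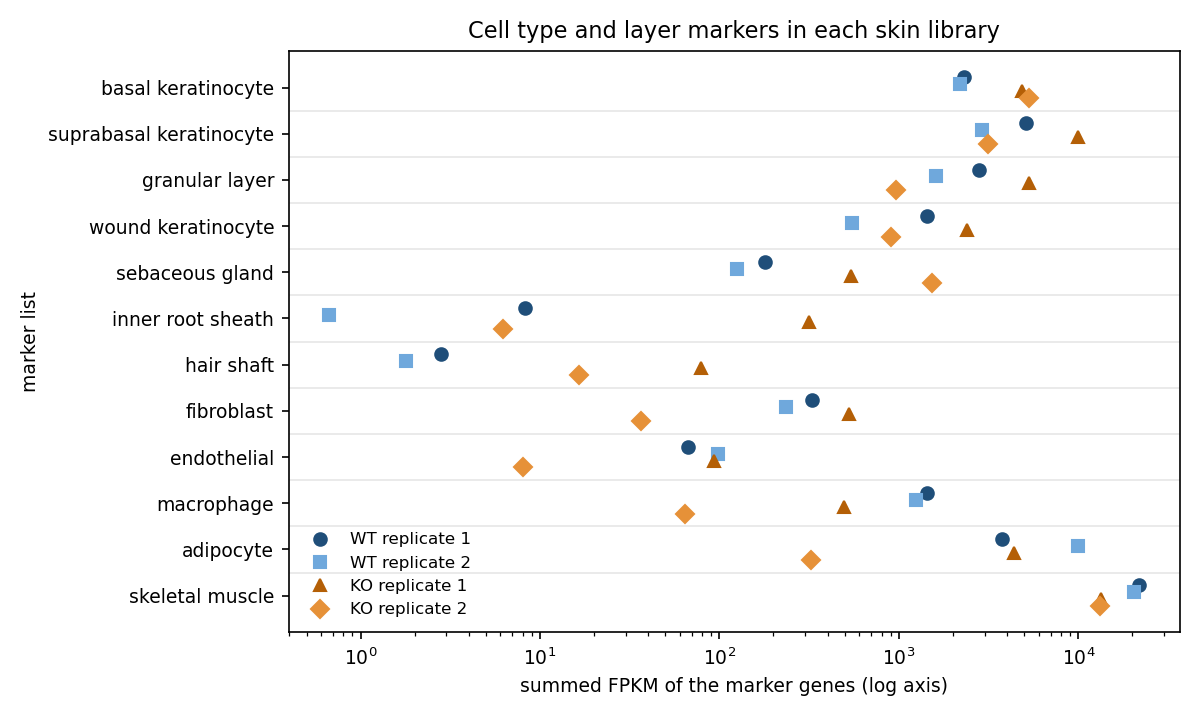
Summed FPKM on a log axis of 12 marker lists in each of the 4 libraries, 1 point per library and list. KO replicate 2 has the highest sum of sebaceous gland markers (1526 FPKM) and the lowest of granular layer, fibroblast, endothelial, macrophage and adipocyte markers, and KO replicate 1 has the highest of granular layer and hair markers. By mean log2(FPKM + 1), not drawn, the granular layer was lowest in WT replicate 2 (4.99, against 5.24 in KO replicate 2).

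The rest of the pathway was described with 65 further genes in 8 steps, of which 62 were tested. None was called by limma at the adjusted threshold, while 15 were higher and 1 was lower at the unadjusted p under 0.05 with the limit on the fold change, beside 6.16% and 4.14% of all tested genes. Both KO libraries lay above both WT libraries in 31 of the genes and below both in 6, beside 35.3% and 20.5% of all tested genes. Their median log2 fold change was 0.50, beside 0.11 for all tested genes. The highest value lay in KO replicate 2 for 32 of the 62 genes, beside 41.6% of all tested genes.

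Enzymes of fatty acid elongation and activation had some of the widest differences. Elovl6, which lengthens palmitate, had 24.2 and 24.3 FPKM (WT) against 93.3 and 518 FPKM (KO), and Elovl3, a sebaceous gland elongase also among the markers, had 8.90 and 4.64 against 58.3 and 297 FPKM. The enzymes of the later reactions in each elongation cycle, Hsd17b12, Hacd2 and Hacd3, had log2 fold changes of 1.73, 1.83 and 1.82, and the elongases Elovl5 and Elovl7 of 1.67 and 1.78. Slc27a4, a fatty acid transport protein with acyl-CoA synthetase activity that is needed for the skin barrier, had 21.5 and 17.4 FPKM (WT) against 57.4 and 220 FPKM (KO). The acyl-CoA synthetase gene Acsl5 had a log2 fold change of 2.25. These 9 genes were named because their groups did not overlap, and all were highest in KO replicate 2. Without that library the log2 fold changes were 0.58 for Hsd17b12, 0.64 for Hacd2, 1.10 for Hacd3, 0.65 for Elovl5, 1.90 for Elovl6, 1.52 for Slc27a4 and 1.27 for Acsl5. Without KO replicate 1 they were 2.87, 3.02, 2.53, 2.70, 4.36, 3.44 and 3.24 in the same order. Other genes of these steps had values below 0, among them the dehydratase gene Hacd1 (-0.56, lower in both KO libraries) and, with overlapping groups, Hacd4 (-0.52), Slc27a1 (-0.96), Acsl1 (-0.94) and Dbi (-0.47), which encodes an acyl-CoA binding protein. Single libraries changed the size of these values and, for Hacd4, the sign. They were -0.33 for Hacd1 without KO replicate 1, 0.17 for Hacd4 without KO replicate 2, and -0.24, -0.37 and -0.07 for Slc27a1, Acsl1 and Dbi without WT replicate 2. Hacd1, Slc27a1, Acsl1 and Dbi stayed below 0 whichever library was left out. In all, 2 of 10 tested genes of elongation and 3 of 8 of acyl-CoA supply were below 0, while 58.6% of all tested genes were above 0.

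In the step of sphingoid base and ceramide synthesis, 11 of 16 tested genes had a log2 fold change above 0 and 5 below, beside 58.6% of all tested genes above 0, and 11 were highest in KO replicate 2, beside 41.6%. Cers4, another ceramide synthase, had 8.11 and 10.8 FPKM (WT) against 41.7 and 208 FPKM (KO), a log2 fold change of 3.19 that was 2.04 without KO replicate 2. Its ratio to Cers3 was 1.36 and 6.56 in WT, 3.0 in KO replicate 1 and 74.5 in KO replicate 2. Fa2h, the fatty acid 2-hydroxylase, had 18.4 and 8.44 FPKM (WT) against 111 and 617 FPKM (KO), with 4.28 ± 0.86 (standard error) as its log2 fold change and an adjusted p of 0.248 by limma. Sptlc3 and Sptssa, parts of serine palmitoyltransferase, had log2 fold changes of 1.90 (1.22 without WT replicate 2) and 1.56. The subunit Sptlc2 differed less, with 5.49 and 6.42 FPKM (WT) against 7.17 and 7.15 FPKM (KO). The ceramide synthase genes Cers1 (-0.91) and Cers2 (-1.0) were lower in both KO libraries, and Ormdl3 (-0.37), Cers6 (-0.06) and Degs2 (-0.72) overlapped between the groups. Without KO replicate 2, Cers1 and Cers2 stood at -0.52 and -0.60 and Degs2 at 0.54, and Ormdl3 was at 0.09 without WT replicate 2. Degs2, a ceramide desaturase and hydroxylase, was highest in KO replicate 1 and not above both WT libraries in KO replicate 2, at 8.36 and 5.31 FPKM (WT) against 10.2 and 0.947 FPKM (KO).

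In the steps after ceramide synthesis, the log2 fold change was above 0 in 5 of 5 tested genes of linoleate oxidation and envelope attachment, 5 of 6 of lamellar body transport, 7 of 11 of extracellular processing, 2 of 3 of omega-hydroxylation and acylation and 0 of 3 of the ceramide head group, beside 58.6% of all tested genes. Nipal4, an ichthyosis gene of acylceramide synthesis, and Tmem79, a protein of lamellar granules, had log2 fold changes of 1.15 (0.68 without WT replicate 2) and 1.28, and the ceramidase gene Acer1 one of 2.35. Ephx3, an epoxide hydrolase that acts after the lipoxygenases, had 6.34 and 3.77 FPKM (WT) against 14.1 and 17.6 FPKM (KO). Alox12e, another epidermal lipoxygenase, had 31.9 and 18.4 FPKM (WT) against 108 and 265 FPKM (KO). Sdr9c7, the dehydrogenase of oxidised acylceramide, and Tgm1, the transglutaminase of the envelope, had 15.3 and 36.8 FPKM in KO replicate 1 but 4.74 and 11.2 FPKM in KO replicate 2, and like Alox12b lay above both WT libraries in KO replicate 1 alone. Sult2b1, the cholesterol sulfotransferase, was also highest in KO replicate 1, at 68.1 FPKM against 26.3 FPKM in KO replicate 2, and its log2 fold change of 1.37 was 0.70 without KO replicate 1 and 0.89 without WT replicate 2.

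The genes lower in KO mice, with groups that did not overlap and a log2 fold change below -1, were Psap and Pnpla2. Psap, which encodes the precursor of the saposins used by glucosylceramide-cleaving and other lysosomal enzymes in many cell types, had 521 and 695 FPKM (WT) against 384 and 216 FPKM (KO). Pnpla2, the triglyceride lipase abundant in adipocytes, had 127 and 418 FPKM against 113 and 42.7 FPKM. Their log2 fold changes of -1.06 and -1.72 were -0.64 and -1.03 without KO replicate 2, and that of Pnpla2 was -0.86 without WT replicate 2. In the ceramide head group step, 3 of 3 other genes overlapped between the groups, as Ugcg and 44.2% of all tested genes did, and Sgms1, a sphingomyelin synthase, differed by -0.04 ± 0.29 (standard error) on the log2 scale.

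**Figure D5:**
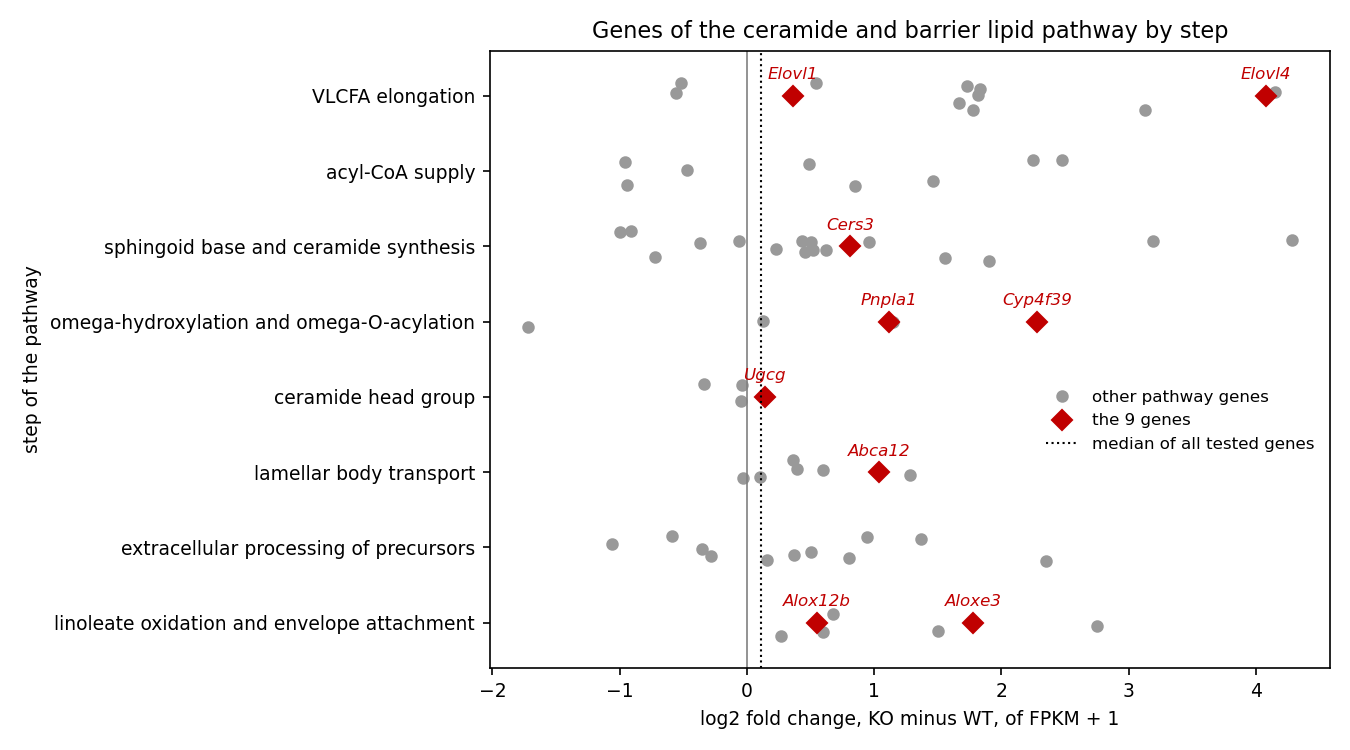
Log2 fold change of FPKM + 1, KO minus WT, for the 9 genes (diamonds) and the 62 other tested pathway genes (circles) by step of the pathway, with vertical lines at 0 and at the median of all tested genes (dotted, 0.11). Values above 1 occur in most steps and are largest in elongation and ceramide synthesis, while the ceramide head group step lies near 0.

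The median profile of the 9 genes, centred over the 4 libraries, was -0.08 and -0.97 in WT and 0.80 and 0.24 in KO libraries on the log2(FPKM + 1) scale. Outside the lists, the 5 tested genes nearest to it were Bicdl2, Tmprss13, Fam46b, Pou3f1 and Slc40a1, at root mean square distances of 0.04 to 0.08. Tmprss13, a membrane-bound serine protease, had 12.5 and 6.21 FPKM (WT) against 25.0 and 17.5 FPKM (KO), and Pou3f1, a POU transcription factor, had 9.41 and 4.44 against 20.0 and 12.9 FPKM. In all, 95 of 12874 genes lay within 0.2 of the profile. The median profile is nearly that of Abca12 and does not stand for each of the 9 genes. Abca12 lay at 0.13 from Pnpla1 but at 0.42 (Alox12b) to 1.83 (Elovl4) from the others.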

How the data were processed

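Skin libraries, 2 of GSDMD KO and 2 of WT mice, grouped by sample title, were analysed. The submitters' processing notes name HISAT2 (version 2.0.1), StringTie (version 2.0.6) and mm9, and the methods name featureCounts and DESeq2. The deposited table is called counts, but 99.993% of its values above 0 are not whole, and they were read as FPKM, which the authors had already scaled by length and depth. The program that wrote them is not given in the sources used here, and no count model was used. Genes reaching 1 FPKM in 2 or more libraries were tested on log2(FPKM + 1), a scale that understates the change of low genes, by limma (version 3.58.1, R version 4.3.3) with a mean-variance trend and Benjamini-Hochberg adjustment, after a trial on simulated data. Depth is approximate, from the value steps of single-transcript genes of at least 2 kb. No source says whether the libraries are separate animals or share litters or batches, so p-values measure only the spread between these samples. Same-numbered libraries were not paired, since the correlation of their deviations was -0.202. The 9 genes, lists and tests were chosen with earlier results of these data known. Pathway genes were named where groups did not overlap and the log2 fold change passed 1 in size, and Sptlc2, Sdr9c7, Tgm1, Sgms1, Lor, the elongation, acyl-CoA and ceramide synthesis genes below 0 and the relatives in the closing section after their values were seen. Alternatives were other pseudocounts, filters, scalings and centrings, no trend, a replicate block and leaving out each library.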

Additional observations from a re-analysis of the deposited data

How the results depend on the processing

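Under other pseudocounts, filters, upper-quartile scaling, median-ratio factors and no trend, the median log2 fold change of the 9 genes stayed between 0.94 and 1.36 and 0 of them were called. Centring the libraries on suprabasal or basal keratinocyte markers, which moved the median of all tested genes from 0.11 to -0.69 and -1.04, gave medians of 0.24 and -0.11 for the 9 genes and of -0.30 and -0.65 for the other pathway genes (0.35 when scaled to the upper quartile, 0.39 by median-ratio factors). Among the 9 genes and the named pathway genes followed through these settings, some log2 fold changes lay on the other side of 0. With suprabasal centring they were -0.44 for Elovl1, -0.66 for Ugcg, -0.25 for Alox12b and -0.57 for Sptlc2. With basal centring they were -0.79 for Elovl1, -0.34 for Cers3, -0.03 for Pnpla1, -1.01 for Ugcg, -0.11 for Abca12, -0.60 for Alox12b and -0.92 for Sptlc2, and with upper-quartile scaling -0.01 for Ugcg. Without KO replicate 2, the basal values were above 0 for Cers3 (0.83), Abca12 (0.36), Alox12b (0.35), Pnpla1 (0.31) and Elovl1 (0.03), and -0.32 for Ugcg. The remaining pathway genes were not followed singly. Basal centring called 1 of the 9 genes (Elovl4), 18 other pathway genes and 5811 of all genes. At the unadjusted p, 3 of the 9 passed with upper-quartile scaling and 1 with either centring. Of all tested genes, 1341 passed without centring (59.8% of them higher in KO mice), 384 with suprabasal centring (5.47%) and 6424 with basal centring (0.623%). This share was 43.9% with upper-quartile scaling and 47.2% with median-ratio factors. The cause of these changes was not tested.

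Without each library in turn, the median ran from 0.60 to 1.49 for the 9 genes and from 0.38 to 0.61 for the other pathway genes. The number called ran from 0 to 3 of the 9, from 0 to 25 of the other pathway genes and from 0 to 1920 of all genes, each highest without KO replicate 1, and 31 of all genes and 1 pathway gene were called without KO replicate 2. At the unadjusted p, 2 to 7 of the 9 and 469 to 2888 of all genes passed, both fewest without WT replicate 2. The ranges that crossed 0 were -0.28 to 1.00 for Elovl1, -0.18 to 1.80 for Cers3, -0.36 to 0.64 for Ugcg (also -0.27 without WT replicate 2) and -0.21 to 1.31 for Alox12b. Among pathway genes with a printed fold change they were -1.22 to 0.17 for Hacd4, -0.22 to 0.09 for Cers6, -0.83 to 0.09 for Ormdl3, -1.98 to 0.54 for Degs2 and -0.33 to 0.26 for Sgms1. The lone library of a group was assumed to vary like the others.

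When replicate numbers entered the fit as a block, 5 of the 9 genes passed at the unadjusted p and 0 at the adjusted p, as without it. At the adjusted p, 0 of all tested genes were called, also as without it. At the unadjusted p, 1593 of all tested genes passed with the block and 1341 without it. With the pairing crossed, added after the data were seen, 4 of the 9 genes passed at the unadjusted p and 0 at the adjusted p. Every value of the 9 genes stands for about 76.3 fragments or more, the fewest being those of Cers3 in WT replicate 2.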

Other observations

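Relatives of the 9 genes in the same families did not follow 1 course. Of 7 fatty acid elongase genes 6 were tested, and in 5 of these both KO libraries lay above both WT libraries, Elovl1 being the exception, beside 35.3% of all tested genes. Elovl2, an elongase of polyunsaturated fatty acids, was at 0 in 3 libraries. Among 6 ceramide synthase genes, Cers2, the broadly expressed enzyme of the family, was lower in both KO libraries, with 33.5 and 47.5 FPKM (WT) against 25.9 and 14.6 FPKM (KO), and Cers6 overlapped between the groups, with 3.82 and 4.14 against 3.29 and 4.29 FPKM. Of 9 Cyp4f genes 5 were tested, and Cyp4f39 was the only one of these higher in both KO libraries, 1 of 5 beside the same 35.3%. Cyp4f18, a member expressed in myeloid cells, had 11.4 and 16.6 FPKM (WT) against 3.03 and 0.346 FPKM (KO). Of 7 lipoxygenase genes 6 were tested. Alox5, the leukotriene-forming lipoxygenase of leukocytes, had 7.70 and 4.58 FPKM (WT) against 2.68 and 0.501 FPKM (KO), opposite to Aloxe3 and Alox12e. In the patatin-like phospholipase family, Pnpla5 had 1.63 and 0.615 FPKM (WT) against 7.1 and 37.9 FPKM (KO). All these genes were tested in the same fit, and 0 passed the adjusted threshold by limma, while of the 23 tested relatives, the 9 genes themselves left out, 6 were higher and 2 were lower in KO mice at the unadjusted p with the limit on the fold change, beside 6.16% and 4.14% of all tested genes. These are values without a test of their own between family members.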
